A study of Mus musculus with 12 samples.

Results

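Described here are 44 mouse genes that drive or carry out cell division, in 6 role groups: G1 cyclins and kinases, the G1/S transition, replication licensing, the replication fork and nucleotide supply, G2 and mitosis, and inhibitors of cyclin-dependent kinases (CDKs). They were taken by gene symbol and grouped by known role. All 44 were listed in both deposited tables, among 11077 genes in the table of Th17 and Th0 cells and 11056 genes in the table of iTreg and Th0 cells. Values are FPKM, a count of sequenced fragments scaled by transcript length and by library size, so levels of different genes can be compared. Genes above 1 FPKM in 4 or more of a table's 8 libraries were tested. All 44 passed this filter and were tested with the other genes that passed, 10269 and 10208 in all.

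Naive CD4+CD62L+ T cells came from the spleens of C57BL/6 mice aged 8 to 10 weeks and were cultured for 3 days. All 12 cultures, 4 in each group, received anti-CD3 and anti-CD28 at 1 µg/ml, which mimic antigen and costimulation. Th0 cells received nothing more. Th17 cultures also received IL6 at 30 ng/ml, TGFb1 at 5 ng/ml, and antibodies against IL4 and IFNγ at 10 µg/ml each. iTreg cultures received IL2 at 10 ng/ml and TGFb1, which the sample labels give as 10 ng/ml and the study's methods give at another concentration. Each polarized group differed from Th0 in several agents at once, and their parts cannot be told apart. The cells were bulk cultures with no sort after polarization named in the sources used here, so fewer cells of a kind and less RNA per cell cannot be told apart either.

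Il17f, the signature cytokine of Th17 cells, stood at 0.0909 to 0.184 FPKM in Th0 and 281 to 788 in Th17 libraries. Foxp3, the factor that defines regulatory T cells, stood at 2.01 to 7.15 in Th0 and 62.0 to 91.7 in iTreg libraries, both from the iTreg table. Foxp3 in the Th17 libraries ranged from 0.499 to 42.5 FPKM, and Il17f in the iTreg libraries from 26.9 to 99.2, so neither polarized group held 1 lineage's transcripts alone. Of 5 B cell and 4 NK cell markers, 1 and 0 were listed, and the B cell marker reached at most 3.84 FPKM. Of 2 CD8 T cell markers 1 was listed, Cd8b1. It stood at 2.52 to 6.6 FPKM in Th0, 3.22 to 5.89 in Th17 and 2.19 to 5.52 in iTreg libraries. Of 6 myeloid markers 1 was listed in the Th17 table, at most at 0.628 FPKM, and 0 in the iTreg table. The 5 listed of 6 T cell markers summed to 738 to 1670 FPKM in Th0, 523 to 1050 in Th17 and 587 to 903 in iTreg libraries, and their part in the results was not tested. The library headings start with M22, M29, M42 or M43, and the same 4 beginnings recur in each group. What they mark was not given in the sources used here. Libraries of 1 beginning moved together around the means of their groups, so the difference within each heading and a fit with the heading as a block are given beside the fit without it. Lists of 4 values below are in the order M22, M29, M42 and M43. Th0 values are those of the Th17 table unless stated, and the same libraries are scaled 1.009 to 1.012 times lower in the iTreg table. Both comparisons use the same 4 Th0 libraries, so their results are set side by side and are not independent.

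In the cell cycle, D-type cyclins with Cdk4 and Cdk6 begin to phosphorylate the retinoblastoma proteins in G1, and cyclin E with Cdk2 completes this. The E2F factors so released switch on genes for DNA synthesis, and the MCM helicase, loaded at origins by Cdc6 and Cdt1, is activated in S phase. Transcripts for mitosis peak in G2. A repressor complex called DREAM holds them off in resting cells, and activators acting through CHR and CCAAT elements switch them on later in the cycle. Activated T cells leave quiescence and divide fast, and these transcripts are abundant in them while they divide.

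Most of these genes were lower in both polarized groups than in Th0 cells. In Th17 cells 40 of 44 had a negative difference, with a median of -0.74 in log2(FPKM + 1) against -0.00 over all genes tested. Without the heading block, limma called 4 members at an FDR of 0.05, where 19.3% of all genes tested were called. Ccnd2, Mcm7 and Pcna were lower, against 8.69% of all genes called lower, and Cdk6 was higher, against 10.6% called higher. With the heading block 36 members were called against 37.8% of all genes. Of these, 33 were lower, where 18.6% of all genes were, and Cdk6, Cdkn1b and Cdkn2d were higher, where 19.2% were. The members not called in either fit were Myc, Ccnd3, Cdk4, E2f2, Cdt1, Mcm2, Mcm6 and Cdc20.

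In iTreg cells 40 of 44 differences were also negative, with a median of -0.62 against 0.01 over all genes tested. Without the block limma called 12 members, where 16.6% of all genes were called. Myc was higher, against 8.36% of all genes called higher, and Ccnd2, E2f1, E2f2, Cdk2, Cdt1, Mcm2, Mcm3, Mcm5, Mcm7, Pcna and Cdkn2c were lower, against 8.21% called lower. With the block 38 members were called against 40.9% of all genes. Here 35 were lower, where 20.0% of all genes were, and Myc, Cdk6 and Cdkn1a were higher, where 20.9% were. Not called in either fit were Ccnd3, Cdk4, Cdc25a, Mcm6, Cdc20 and Cdkn1b.

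Counted within headings, 30 of 44 members were lower in Th17 than in Th0 in all 4 headings, where 26.9% of all genes tested were, and Cdk6, Cdkn1b and Cdkn2d were higher in all 4, where 28.4% were. For iTreg 36 were lower in all 4, where 27.4% of all genes were, and Myc, Cdk6 and Cdkn1a were higher in all 4, where 29.1% were. The size of the Th17 difference varied by heading. Its median over the members was -1.25 within M22, -1.02 within M29, -0.21 within M42 and -0.60 within M43. The iTreg difference was more even, with medians of -0.63, -0.79, -0.55 and -0.43. Without the M42 Th17 library, 17 members were called lower in Th17 in the fit without the block, and without the M22 Th17 library only Ccnd2 was. Without M22 Th0, M29 Th17, M42 Th0 or M43 Th17, 2 members were called in Th17 cells. For iTreg 4 members were called without M22 Th0, M22 iTreg, M42 Th0 or M43 Th0. The share of all genes called in these fits with a library left out is not given here. A change in the members therefore cannot be told from a change over all genes.

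**Figure D1:**
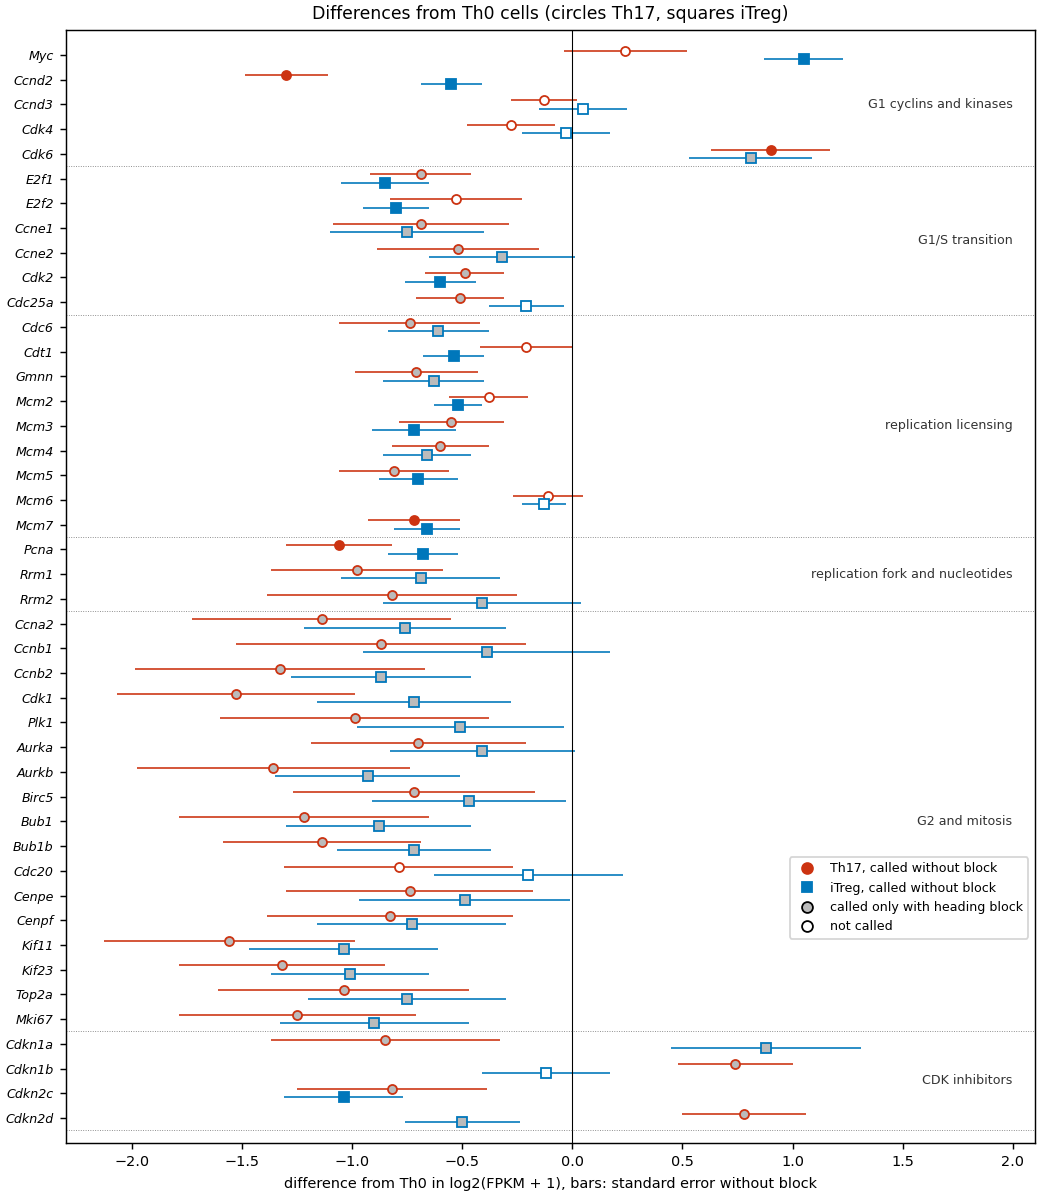
Difference from Th0 of each of the 44 genes in log2(FPKM + 1), circles for Th17 and squares for iTreg, with the standard error of the fit without the heading block as bars (n = 4 libraries a group). Most symbols lie left of 0, and nearly all mitotic genes are gray, which marks genes called only with the heading block.

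The promoters of these genes carry sequence elements that differ between the role groups. RefSeq promoters, 250 bases before to 50 after a gene's start in GRCm38.p6, were at hand for 37 of the 44 genes, with 42 promoters. They were searched on both strands for E2F elements (TTTCCCGC, TTTCGCGC, TTTGCCGC or TTTGGCGC), CHR elements (TTTGAA or TTCGAA) and CCAAT boxes. A match is a description of the letters and not evidence of binding. Of 15 promoters of mitotic genes, 12 (80.0%) held both a CHR and a CCAAT element, as 7.52% of all 32851 promoters did. An E2F element was in 6 of 8 promoters (75.0%) of licensing genes and in 3 of 6 of G1/S genes, against 1 of 15 (6.67%) of mitotic genes and 2.26% of all promoters. No CHR element was found in the 3 promoters of fork genes, the 4 of G1 genes or the 6 of CDK inhibitor genes. A CHR element was in 19.2% of all promoters, so its absence from sets this small does not set these groups apart. It was also in 2 of 8 promoters of licensing genes and in 1 of 6 of G1/S genes. No promoter row was at hand for Ccnd2, Aurkb, Myc, Gmnn, Ccna2, Ccne2 and Mcm4.

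Shown next, chosen after the differences were seen, are 3 mitotic promoters of genes with wide differences, 1 licensing promoter with E2F elements, and the promoter of Pcna, which was lower in both polarized groups. They are written 5′ to 3′ on the strand of the gene, and capitals mark every match to the E2F, CHR or CCAAT letters or their reverse complement, run together where E2F matches on opposite strands overlap, as in Mcm5. Kif11 lies on the plus strand at chr19:37376132-37376431, Ccnb2 on the minus strand at chr9:70421505-70421804 and Cdk1 on the minus strand at chr10:69352863-69353162. Mcm5 lies on the plus strand at chr8:75109259-75109558 and Pcna on the minus strand at chr2:132253131-132253430.
Kif11: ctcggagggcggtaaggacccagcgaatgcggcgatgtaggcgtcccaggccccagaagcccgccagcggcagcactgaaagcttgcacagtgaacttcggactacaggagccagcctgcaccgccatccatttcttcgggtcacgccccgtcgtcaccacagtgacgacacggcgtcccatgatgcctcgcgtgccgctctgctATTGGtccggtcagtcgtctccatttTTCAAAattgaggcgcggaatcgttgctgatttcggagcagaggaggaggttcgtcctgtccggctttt
Ccnb2: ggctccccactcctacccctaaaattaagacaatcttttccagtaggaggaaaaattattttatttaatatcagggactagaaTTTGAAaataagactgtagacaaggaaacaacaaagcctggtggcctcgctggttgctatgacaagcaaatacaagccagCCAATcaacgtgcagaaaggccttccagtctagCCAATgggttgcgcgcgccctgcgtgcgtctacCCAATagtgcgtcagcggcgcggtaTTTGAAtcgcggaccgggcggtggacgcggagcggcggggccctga
Cdk1: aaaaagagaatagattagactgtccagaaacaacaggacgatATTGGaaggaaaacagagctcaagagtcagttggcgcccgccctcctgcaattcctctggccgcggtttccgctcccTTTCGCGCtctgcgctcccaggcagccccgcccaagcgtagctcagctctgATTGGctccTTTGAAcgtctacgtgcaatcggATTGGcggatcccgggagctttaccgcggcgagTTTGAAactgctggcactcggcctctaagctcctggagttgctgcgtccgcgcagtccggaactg
Mcm5: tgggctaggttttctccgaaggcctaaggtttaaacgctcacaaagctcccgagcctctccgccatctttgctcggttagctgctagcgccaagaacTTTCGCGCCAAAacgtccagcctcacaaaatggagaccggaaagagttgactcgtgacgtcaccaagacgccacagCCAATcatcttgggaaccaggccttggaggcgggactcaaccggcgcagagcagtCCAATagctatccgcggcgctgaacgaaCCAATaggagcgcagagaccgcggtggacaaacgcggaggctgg
Pcna: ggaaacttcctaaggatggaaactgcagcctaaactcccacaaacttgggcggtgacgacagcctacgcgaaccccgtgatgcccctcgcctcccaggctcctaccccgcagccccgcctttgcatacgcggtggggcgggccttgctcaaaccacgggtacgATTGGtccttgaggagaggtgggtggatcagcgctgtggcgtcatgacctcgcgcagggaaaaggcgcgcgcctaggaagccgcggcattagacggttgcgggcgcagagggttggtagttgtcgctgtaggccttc

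Kif11 and Ccnb2 hold CHR and CCAAT letters and no E2F element. Cdk1 holds all 3 kinds, Mcm5 holds E2F and CCAAT, and Pcna holds a CCAAT box alone.

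In Th0 cells the level per transcript length ran from a mean of 594 FPKM for Pcna to 5.42 for Ccne2. After Pcna came Cdk4 at 225 ± 48.1 (SD, n = 4) and Ccnd2 at 214 ± 32.2, whose libraries overlapped. Mcm6, Mcm3, Cdkn1a and Mcm7 followed at means of 158, 155, 150 and 149, with overlapping ranges. Ccne2, Cenpf at 7.14 and Cdk6 at 9.25 were the lowest. The groups differed in how evenly the 4 Th0 libraries held them. The highest Th0 library stood a median of 1.24 times above the lowest for the 9 licensing genes, and 2.91 times for the 17 mitotic genes.

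**Figure D2:**
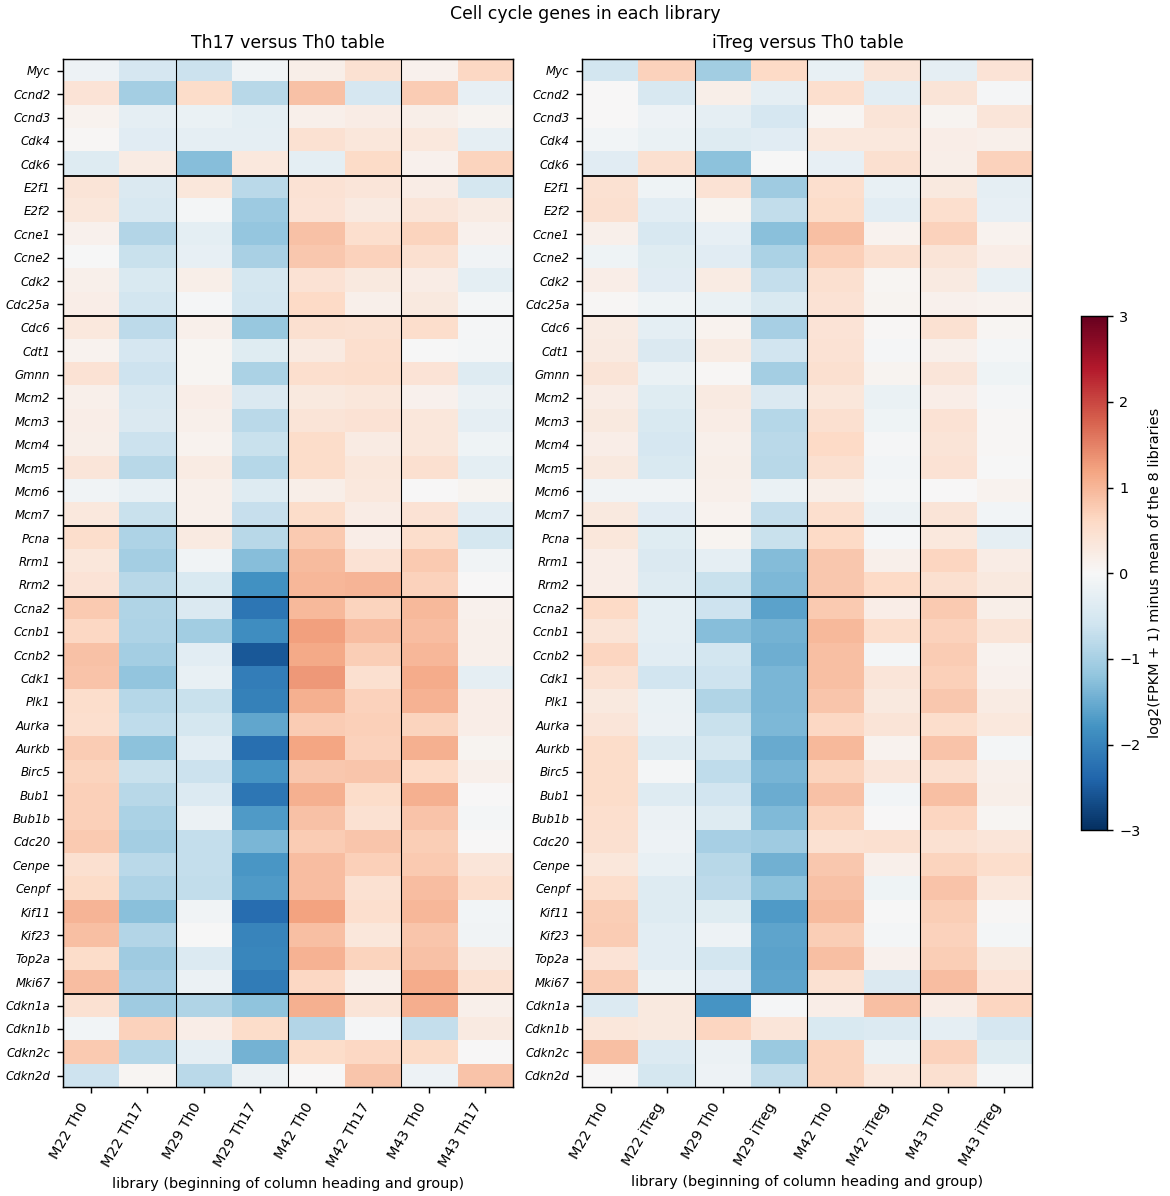
Level of each gene in each library, as log2(FPKM + 1) minus its mean over the 8 libraries of a table, with libraries in pairs of 1 heading and Th0 first. The mitotic rows are darkest blue in the M29 Th17 and M29 iTreg libraries, and within most headings the polarized library is bluer than its Th0 library.

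Of the 5 G1 genes, Ccnd2 was lower and Cdk6 was higher in Th17 cells, and Ccnd2 was lower and Myc higher in iTreg cells. Ccnd2, a D-type cyclin of activated lymphocytes (chr6:127125162-127152193, GRCm38), stood at 178, 197, 250 and 230 FPKM in Th0 libraries. In Th17 libraries it stood at 65.8, 74.7, 94.8 and 113, and in iTreg libraries at 124, 143, 140 and 169. No Th17 or iTreg library reached the lowest Th0 library. The difference was -1.30 ± 0.19 (SE) in Th17 cells (limma adjusted p = 0.0015, or 0.00020 with the block), a mean 2.45 times lower. It was -0.55 ± 0.14 in iTreg cells (adjusted p = 0.029, block 0.0032), a mean 1.47 times lower. The Th17 call remained without any 1 of the 8 libraries (adjusted p at most 0.0073), while the iTreg call was lost in 5 of 8 such fits.

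Its partner kinase Cdk6 was at 9.19, 4.49, 9.85 and 13.5 FPKM in Th0, 14.6, 15.5, 18.8 and 20.0 in Th17, and 16.6, 11.5, 16.7 and 19.5 in iTreg libraries. All Th17 libraries lay above all Th0 libraries, and 1 iTreg library fell within the Th0 range. The difference was 0.90 ± 0.27 in Th17 (adjusted p = 0.047, block 0.0088) and 0.81 ± 0.28 in iTreg cells (adjusted p = 0.091, block 0.0019). The Th17 call without the block was lost with a pseudocount of 0.1 (adjusted p = 0.058) and in 6 of 8 fits that left out a library.

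Myc, a transcription factor that drives growth and entry into the cycle, went from 61.7, 43.1, 77.1 and 75.0 FPKM in Th0 to 145, 137, 118 and 120 in iTreg libraries, with no overlap. In Th17 libraries it stood at 48.1, 63.0, 94.3 and 106, below Th0 within M22 and above it within the other headings. The difference was 1.05 ± 0.18 in iTreg cells (adjusted p = 0.0055, block 0.0040), a mean 2.05 times higher, and 0.24 ± 0.28 in Th17 cells (adjusted p = 0.60, block 0.27). The iTreg call remained without any 1 library (adjusted p at most 0.023).

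Cdk4, the other kinase of the D-type cyclins, was at 206, 167, 275 and 252 FPKM in Th0, 158, 165, 253 and 167 in Th17, and 188, 171, 269 and 240 in iTreg libraries. The groups overlapped, with differences of -0.28 ± 0.20 (adjusted p = 0.38) and -0.03 ± 0.20 (adjusted p = 0.94). Its exons share 19.7% of their bases with Tspan31, and the counting did not use strand. Ccnd3 differed by -0.13 ± 0.15 in Th17 and 0.05 ± 0.20 in iTreg cells, and was not called in either fit.

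The 6 genes of the G1/S transition were all lower within all 4 headings in both comparisons, where 26.9% and 27.4% of all genes were, with medians of -0.52 in Th17 and -0.68 in iTreg cells. Without the block limma called 0 in Th17, where 19.3% of all genes were called, and 3 lower in iTreg cells, where 8.21% were. In Th17 cells limma's trend and robust options also gave 0. There 3 were at an unadjusted p under 0.05, and the share of all genes at that threshold is not given here. With the block 5 were called lower in each comparison, where 18.6% and 20.0% of all genes were, not E2f2 in Th17 (adjusted p = 0.054) and not Cdc25a in iTreg cells (adjusted p = 0.074).

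E2f1, an activating E2F factor, was at 19.6, 19.0, 20.3 and 17.5 FPKM in Th0, 10.7, 8.07, 19.4 and 9.89 in Th17, and 12.5, 6.01, 11.7 and 11.2 in iTreg libraries. The M42 Th17 library alone reached the Th0 range, and no iTreg library did. The difference was -0.69 ± 0.23 in Th17 (adjusted p = 0.064, block 0.019) and -0.85 ± 0.20 in iTreg cells (adjusted p = 0.021, block 0.0064), where the call without the block was lost in 2 of 8 fits that left out a library.

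E2f2, a second activating factor, was at 20.3, 15.2, 21.4 and 20.6 FPKM in Th0, 11.0, 6.86, 19.3 and 19.0 in Th17, and 11.2, 8.12, 11.2 and 11.7 in iTreg libraries. The iTreg libraries lay below all Th0 libraries, and 2 of the Th17 libraries, M42 and M43, lay inside the Th0 range. Its iTreg difference, -0.80 ± 0.15 (adjusted p = 0.0073, block 0.00019), was close to the same within each heading, from -0.86 to -0.75. It was called without any 1 library too (adjusted p at most 0.026).

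Cdk2, the kinase of cyclin E and cyclin A, was at 42.9, 43.6, 52.4 and 45.0 FPKM in Th0, 27.8, 26.5, 47.8 and 31.1 in Th17, and 28.9, 21.7, 38.3 and 31.2 in iTreg libraries. Again the M42 Th17 library alone lay in the Th0 range. The differences were -0.49 ± 0.18 (adjusted p = 0.10, block 0.015) and -0.60 ± 0.16 (adjusted p = 0.037, block 0.0041). The iTreg call without the block was lost in 7 of 8 fits that left out a library (adjusted p up to 0.094), all but the fit without the M42 iTreg library. Cyclin E1, Ccne1, was at 30.9, 22.8, 52.7 and 44.9 in Th0, 14.9, 12.1, 40.2 and 30.9 in Th17, and 19.2, 10.9, 29.5 and 29.4 in iTreg libraries. It was lower within every heading although the groups overlapped, and was called with the block alone (adjusted p = 0.0058 and 0.00090, against 0.27 and 0.19). Ccne2 and the phosphatase gene Cdc25a differed by -0.52 ± 0.37 and -0.51 ± 0.20 in Th17, and by -0.32 ± 0.33 and -0.21 ± 0.17 in iTreg cells. Of the exonic bases of Ccne2, 17.4% are shared with Ints8.

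All 9 genes of replication licensing had negative differences in both comparisons, with medians of -0.60 in Th17 and -0.63 in iTreg cells. In Th17 cells Mcm7 was called lower without the block, 1 of 9 (11.1%) where 8.69% of all genes were, and 6 were with it, where 18.6% were. In iTreg cells 5 were called lower without the block, where 8.21% of all genes were, and 8, all but Mcm6, with it, where 20.0% were. The iTreg libraries all lay below the Th0 libraries for 7 of the 9, where 11.0% of all genes were lower without overlap, and the Th17 and Th0 libraries overlapped for all 9. The M42 Th17 library lay in or above the Th0 range for all 9, and within M42 the median difference of the licensing genes was 0.01, against -0.83, -0.85 and -0.56 within M22, M29 and M43.

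Mcm7, a subunit of the MCM helicase, was at 144, 128, 169 and 155 FPKM in Th0, 72.5, 70.4, 135 and 92.3 in Th17, and 91.7, 71.0, 103 and 110 in iTreg libraries. The M42 Th17 library was above the lowest Th0 library, and all iTreg libraries were below it. The differences were -0.72 ± 0.21 (adjusted p = 0.041, block 0.0049) and -0.66 ± 0.15 (adjusted p = 0.020, block 0.0010). The call without the block was lost in 6 of 8 fits that left out a library in Th17 and in 4 of 8 in iTreg cells, and 12.6% of the exonic bases are shared with Ap4m1, Cops6 and 2 microRNA genes.

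Mcm2 was at 93.5, 95.7, 102 and 91.8 FPKM in Th0, 59.4, 61.6, 106 and 74.0 in Th17, and 61.0, 58.2, 68.9 and 76.6 in iTreg libraries. The highest Th0 library was 1.11 times the lowest, the iTreg libraries were all lower than these, and the M42 Th17 library was the highest of all. The iTreg difference was -0.52 ± 0.11 (adjusted p = 0.013, block 0.0046) and was called without any 1 library (adjusted p at most 0.046), while the Th17 difference was -0.38 ± 0.18 (adjusted p = 0.18, block 0.066).

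Mcm3 and Mcm5, further subunits of the helicase, were both lower in iTreg cells. Mcm3 went from 148, 142, 168 and 162 FPKM in Th0 to 86.1, 65.2, 108 and 122 in iTreg libraries (-0.72 ± 0.19, adjusted p = 0.031, block 0.0036). Mcm5 went from 126, 115, 142 and 137 to 72.3, 56.2, 94.1 and 99.5 (-0.70 ± 0.18, adjusted p = 0.031, block 0.0024). Neither overlapped Th0 there, and each call without the block was lost in 4 of 8 fits that left out a library. In Th17 libraries Mcm3 stood at 93.7, 72.2, 174 and 106 and Mcm5 at 54.4, 53.7, 123 and 79.4, with differences of -0.55 ± 0.24 and -0.81 ± 0.25 that were called with the block alone (adjusted p = 0.037 and 0.0099).

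Cdt1, which loads the helicase at origins, was at 42.6, 41.6, 48.0 and 39.3 FPKM in Th0, 27.8, 30.5, 57.2 and 38.1 in Th17, and 25.6, 23.0, 34.1 and 33.6 in iTreg libraries. It did not overlap Th0 in iTreg cells (-0.54 ± 0.14, adjusted p = 0.034, block 0.0084), and in Th17 cells it spanned a range wider than that of Th0 (-0.21 ± 0.21, adjusted p = 0.54, block 0.31). The iTreg call without the block was lost in 6 of 8 fits that left out a library (adjusted p up to 0.099). Mcm6 was the member of the helicase with the smallest difference, at 141, 167, 171 and 153 in Th0, 129, 115, 189 and 159 in Th17, and 138, 130, 144 and 160 in iTreg libraries. Its differences were -0.11 ± 0.16 and -0.13 ± 0.10, and it was not called in either fit (adjusted p = 0.68 and 0.47, block 0.51 and 0.29). Cdc6, Gmnn, which encodes the Cdt1 inhibitor geminin, and Mcm4 differed by -0.74 to -0.60 in Th17 and by -0.66 to -0.61 in iTreg cells, all called with the block alone.

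At the replication fork, Pcna fell in both comparisons. The gene of the sliding clamp, at chr2:132249162-132253314, was at 590, 493, 708 and 585 FPKM in Th0, 213, 228, 466 and 283 in Th17, and 358, 289, 447 and 380 in iTreg libraries. All polarized libraries were below all Th0 libraries. The differences were -1.06 ± 0.24 (adjusted p = 0.016, block 0.0019), a mean 2.0 times lower, and -0.68 ± 0.16 (adjusted p = 0.020, block 0.00042), a mean 1.59 times lower. The call was lost in 1 of 8 fits for Th17 and 3 of 8 for iTreg when a library was left out. Reads of Pcna are partly uncertain, since 10.1% of the 100-base windows of its transcripts also occur in the pseudogene Pcna-ps2.

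Ribonucleotide reductase, which makes deoxynucleotides, is built from the products of Rrm1 and Rrm2. Rrm2 was at 119, 64.1, 179 and 143 FPKM in Th0, 49.1, 24.5, 180 and 89.4 in Th17, and 77.5, 39.5, 155 and 125 in iTreg libraries. M29 was the lowest library in each group and the groups overlapped. It differed by -0.82 ± 0.57 and -0.41 ± 0.45, and Rrm1 by -0.98 ± 0.39 and -0.69 ± 0.36. Both were called with the block alone (Rrm2 adjusted p = 0.028 and 0.022, Rrm1 0.0029 and 0.0031).

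**Figure D3:**
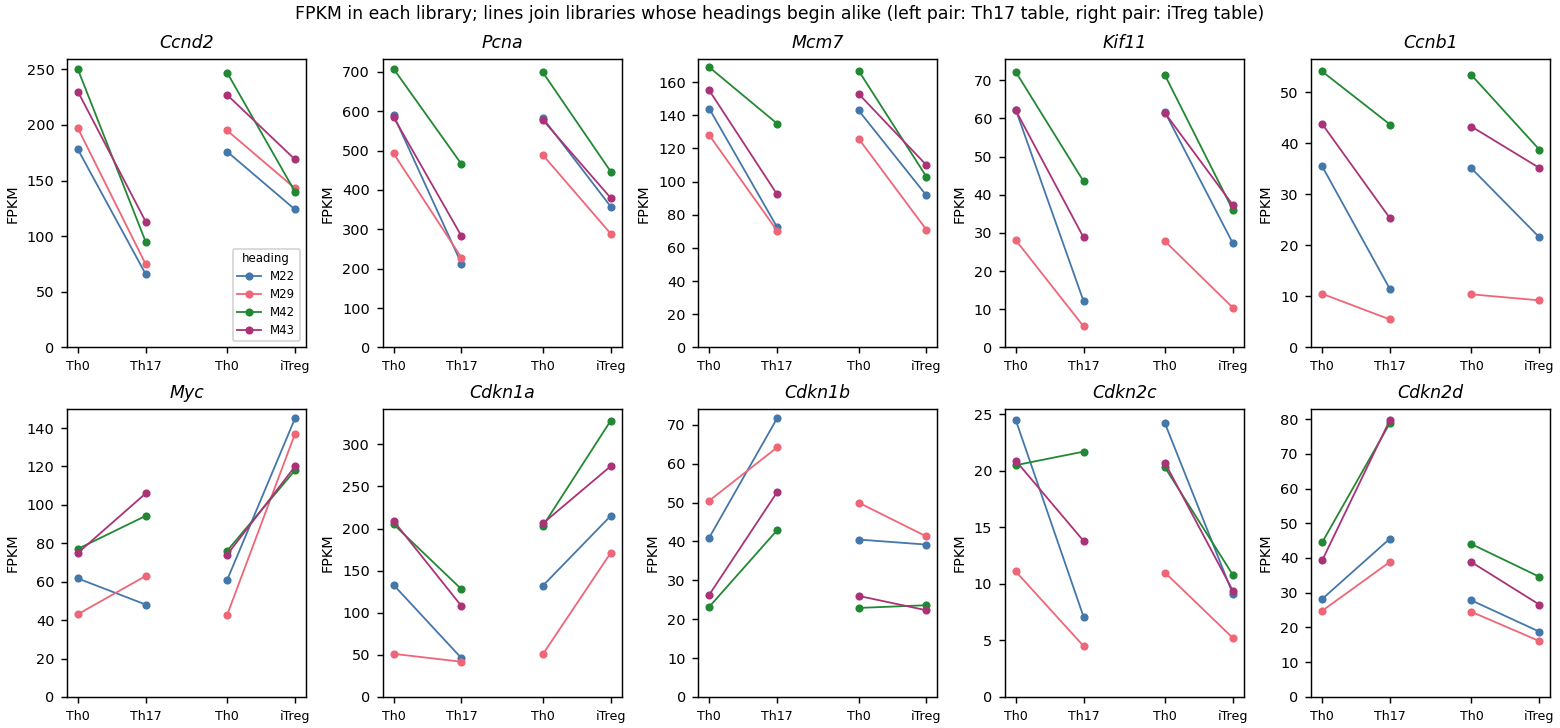
FPKM of 10 genes in each library, with lines joining libraries of 1 heading, the Th17 table on the left and the iTreg table on the right of each panel. Ccnd2, Pcna and Mcm7 fall along every line in both tables, Cdkn1a falls toward Th17 and rises toward iTreg, and Cdkn2d does the reverse. Kif11 and Ccnb1 start from Th0 levels that lie far apart.

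The 17 genes of G2 and mitosis had the most negative medians of the 6 role groups in both comparisons, and the widest median spread over Th0 libraries. All 17 were negative in both comparisons, with a median of -1.14 (from -1.56 to -0.70) in Th17 and -0.73 (from -1.04 to -0.20) in iTreg cells. Without the block limma called 0 of 17 in each comparison, where 19.3% and 16.6% of all genes were called. With limma's trend and robust options it also called 0 in each. At an unadjusted p under 0.05 there were 5 and 2, and the share of all genes at that threshold is not given here. With the block 16 were called lower in each comparison, all but Cdc20, where 18.6% and 20.0% of all genes were. Within headings 15 were lower in all 4 in Th17 cells and 16 in iTreg cells, against 26.9% and 27.4% of all genes, and the exceptions, all within M42, were Birc5 and Cdc20 for Th17 and Cdc20 for iTreg.

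The spread followed the headings. The M29 library was the lowest of its group for 17 of 17 mitotic genes in Th0, in Th17 and in iTreg cells, and M42 was the highest for 13, 15 and 9. Of the sum of squares of log2(FPKM + 1) over the 8 libraries, a median of 61.8% lay between headings and 30.0% between groups in the Th17 table, and 73.2% and 24.7% in the iTreg table. For the licensing genes these shares were 41.1% and 40.6%, and 26.6% and 67.1%, with the lowest heading share of any role group in each table. The G1 genes had a higher median heading share than the mitotic genes in the Th17 table. In the iTreg table fork genes had 66.5% and CDK inhibitors 62.2% between headings. M29 was also the lowest iTreg library for 9 of 9 licensing, 6 of 6 G1/S and 3 of 3 fork genes. The pattern was thus not confined to mitotic genes, and its share over all genes is not given here.

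**Figure D4:**
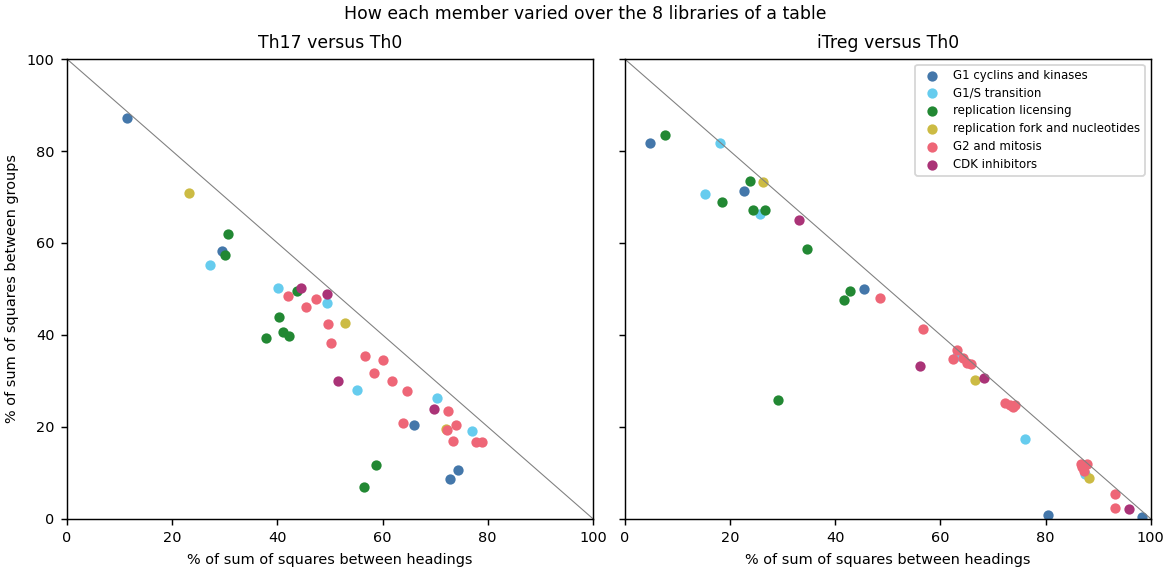
Share of each gene's sum of squares of log2(FPKM + 1) that lay between the 4 headings (x axis, %) and between the 2 groups (y axis, %) in each table, with the remainder as the distance below the diagonal line. Mitotic genes sit toward the lower right, and in the iTreg table most licensing genes sit toward the upper left.

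Top2a and Mki67 had the highest Th0 means of the group. Top2a, the topoisomerase that untangles chromosomes, was at 133, 67.8, 187 and 166 FPKM in Th0, 42.6, 22.6, 143 and 109 in Th17, and 78.3, 31.7, 108 and 120 in iTreg libraries. Within each heading the Th0 library was the highest, but the M29 Th0 library was lower than the M42 and M43 libraries of both polarized groups. The differences were -1.04 ± 0.57 (adjusted p = 0.25, block 0.013) and -0.75 ± 0.45 (adjusted p = 0.31, block 0.0018). Mki67, the proliferation marker, was at 68.5, 31.5, 55.1 and 77.9 in Th0, 17.3, 7.53, 39.6 and 48.7 in Th17, and 34.6, 12.6, 29.3 and 53.1 in iTreg libraries. It differed by -1.25 ± 0.54 (adjusted p = 0.15, block 0.013) and -0.90 ± 0.43 (adjusted p = 0.20, block 0.0015), again lower in all headings.

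A few more mitotic genes are given as examples chosen after their values were seen. Kif11, the motor that separates spindle poles, had the most negative Th17 difference. It was at 62.3, 28.1, 72.2 and 62.1 FPKM in Th0, 12.1, 5.49, 43.5 and 28.8 in Th17, and 27.3, 10.4, 36.0 and 37.3 in iTreg libraries. Its heading differences in Th17 ran from -2.28 within M22 to -0.72 within M42, and in iTreg from -1.34 to -0.70 (block adjusted p = 0.0055 and 0.00062).

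Cdk1, the kinase that drives mitotic entry, was at 33.6, 15.4, 45.8 and 40.1 FPKM in Th0, 7.37, 3.52, 25.8 and 14.7 in Th17, and 15.7, 8.63, 31.2 and 26.4 in iTreg libraries. Its Th17 mean was 2.63 times lower than in Th0 and its iTreg mean 1.62 times lower (block adjusted p = 0.0018 in each). The partner cyclin gene Ccnb1 differed less, by -0.87 ± 0.66 and -0.39 ± 0.56 (block adjusted p = 0.013 and 0.017), and 14.9% of its 100-base windows occur in related pseudogenes. Aurkb, of the kinase that corrects chromosome attachment, was almost the same within each heading in iTreg cells, from -0.99 to -0.88 (block adjusted p = 0.00011). In Th17 cells it ran from -1.99 within M22 to -0.49 within M42.

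The remaining mitotic genes followed in the same direction. They were the cyclin genes Ccna2 and Ccnb2, the mitotic kinase genes Plk1 and Aurka, Birc5 of the Aurora B complex, the spindle checkpoint genes Bub1, Bub1b and Cdc20, the centromere genes Cenpe and Cenpf, and Kif23 of cytokinesis. Without Cdc20 they differed by -1.33 (Ccnb2) to -0.70 (Aurka) in Th17 and by -1.01 (Kif23) to -0.41 (Aurka) in iTreg cells. All of these but Cdc20 were called with the block. Of the exonic bases of Ccna2, 12.5% are shared with Exosc9. Cdc20, which activates the anaphase ligase, differed by -0.79 ± 0.52 and -0.20 ± 0.43 (block adjusted p = 0.06 and 0.23), and its M29 Th0 library, at 18.4 FPKM, lay far below the others at 52.2 to 53.7.

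The 4 CDK inhibitors did not move together. With the block all 4 were called in Th17 cells, Cdkn1b and Cdkn2d higher and Cdkn1a and Cdkn2c lower, where 37.8% of all genes were called. In iTreg cells Cdkn1a was called higher and Cdkn2c and Cdkn2d lower, where 40.9% of all genes were called. Without the block limma called 0 in Th17, where 19.3% of all genes were called, and Cdkn2c in iTreg cells, where 16.6% were. In Th17 cells limma's trend and robust options also gave 0. There 2 were at an unadjusted p under 0.05, and the share of all genes at that threshold is not given here.

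Cdkn1a encodes p21, which binds cyclin and CDK complexes after stress or TGFb signals. It was at 133, 51.2, 205 and 209 FPKM in Th0, 46.1, 41.8, 128 and 108 in Th17, and 215, 171, 328 and 274 in iTreg libraries. Every Th17 library was below, and every iTreg library above, the Th0 library of its heading. The differences were -0.85 ± 0.52 in Th17 (adjusted p = 0.30, block 0.013) and 0.88 ± 0.43 in iTreg cells (adjusted p = 0.21, block 0.014).

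Cdkn1b encodes p27, which holds resting cells out of the cycle. It was at 41.0, 50.5, 23.2 and 26.3 FPKM in Th0, 71.7, 64.2, 42.9 and 52.7 in Th17, and 39.2, 41.3, 23.6 and 22.3 in iTreg libraries. It stood above Th0 in every heading in Th17 cells, while the iTreg differences within headings ran from -0.27 to 0.04. The differences were 0.74 ± 0.26 (adjusted p = 0.084, block 0.0041) and -0.12 ± 0.29 (adjusted p = 0.83, block 0.26). In Th0 cells Cdkn1b was highest in M29, the heading with the lowest mitotic genes, and lowest in M42. The other CDK inhibitors, Cdkn1a, Cdkn2c and Cdkn2d, were lowest in M29 among the Th0 libraries.

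Cdkn2c and Cdkn2d encode p18 and p19, which bind Cdk4 and Cdk6. Cdkn2c was at 24.5, 11.1, 20.5 and 20.9 FPKM in Th0, 7.09, 4.50, 21.7 and 13.8 in Th17, and 9.11, 5.22, 10.8 and 9.40 in iTreg libraries. All iTreg libraries were below all Th0 libraries (-1.04 ± 0.27, adjusted p = 0.031, block 0.00029), and the M42 Th17 library was not below its Th0 library (-0.82 ± 0.43, adjusted p = 0.23, block 0.047). Leaving out a library lost the iTreg call without the block in 6 of 8 fits (adjusted p up to 0.084). Cdkn2d, given after its values were seen, was at 28.2, 24.8, 44.5 and 39.3 in Th0, 45.6, 38.9, 78.9 and 79.8 in Th17, and 18.8, 16.1, 34.6 and 26.6 in iTreg libraries. It was higher in every heading in Th17 (0.78 ± 0.28, adjusted p = 0.089, block 0.0013) and lower in every heading in iTreg cells (-0.50 ± 0.26, adjusted p = 0.25, block 0.0021).

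Across the 44 members, 3 had no overlap between Th17 and Th0 libraries. Ccnd2 and Pcna were lower without overlap, where 10.6% of all genes tested were, and Cdk6 was higher, where 13.2% were. In the iTreg comparison 13 members were lower without overlap, where 11.0% of all genes were, and Myc was higher, where 11.7% were.

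Further genes of the same processes, 182 symbols chosen by role, were read as a list of their own. Of these 174 were tested, with a median difference of -0.65 in Th17 and -0.53 in iTreg cells. Without the block 36 (20.7%) were called in Th17 cells, near the 19.3% of all genes tested. Of these 8 were higher, where 10.6% of all genes were, and 28 lower, where 8.69% were. With the block 128 (73.6%) were called against 37.8% of all genes, 10 higher against 19.2% and 118 lower against 18.6%. In iTreg cells 37 (21.3%) were called without the block, where 16.6% of all genes were, 4 higher against 8.36% and 33 lower against 8.21%. With the block these were 134 of 174 against 40.9%, 7 higher against 20.9% and 127 lower against 20.0%.

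Called higher with the widest differences were Mxd1, Ccng2 and Gadd45a in Th17 cells and Mxd1, Mxi1 and Mxd4 in iTreg cells. Mxd1, whose protein competes with Myc for its partner Max, went from 5.31 to 8.16 FPKM in Th0 libraries to 15.2 to 33.3 in Th17 (1.65 ± 0.24, adjusted p = 0.0016), and to 10.6 to 20.9 in iTreg libraries (1.04 ± 0.23, adjusted p = 0.018). Ccng2, a cyclin of cells that stop dividing, rose in Th17 cells (1.21 ± 0.16, adjusted p = 0.0012) and was at 21.3 to 30.6 FPKM in iTreg and 23.3 to 29.2 in Th0 libraries of the same table. Gadd45a, a gene of the stress response, rose in Th17 cells (0.97 ± 0.26, adjusted p = 0.032). In iTreg cells Mxi1 and Mxd4, of the same family as Mxd1, rose by 0.76 ± 0.16 (adjusted p = 0.013) and 0.60 ± 0.13 (adjusted p = 0.017). In Th17 cells they differed by much the same, 0.67 ± 0.18 (adjusted p = 0.029) and 0.60 ± 0.19 (adjusted p = 0.061, block 0.0093).

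Among those called lower with the widest differences in Th17 cells were the centromere genes Cenpm (-1.67 ± 0.43, adjusted p = 0.027) and Cenpk (-1.32 ± 0.34, adjusted p = 0.028). In iTreg cells the genes called lower with the widest differences were Asf1b, of a histone chaperone used in S phase (-1.17 ± 0.27, adjusted p = 0.020), Wee1, of the kinase that restrains Cdk1 (-1.12 ± 0.17, adjusted p = 0.0024), and Mxd3, a Mxd family member of S phase (-1.12 ± 0.29, adjusted p = 0.030). Wee1 had libraries of 11.8 to 14.2 FPKM in Th0 and 3.52 to 7.67 in Th17, without overlap. The difference between the Th17 and iTreg comparisons was not tested for any gene.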

How the data were processed

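RNA-seq libraries of Th0, Th17 and iTreg cells were analysed from 2 deposited tables. Per the study's methods and the labels, the authors mapped paired reads to mm10 with TopHat2 2.0.14, counted reads over exons with HTSeq without regard to strand, tested genes with edgeR, and left out genes with low counts. The authors deposited FPKM per gene and library. How FPKM was computed and which gene annotation was used were not given in the sources used here. Each table also holds 5 columns of the authors' own comparison (log2 fold change, log2 mean CPM, a likelihood-ratio score, p-value and FDR), which were not used.

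Genes above 1 FPKM in 4 or more of a table's 8 libraries were tested with limma 3.58.1 (R 4.3.3) on log2(FPKM + 1), 4 libraries against 4, and p-values were adjusted by Benjamini and Hochberg over all genes tested. Called means an adjusted p under 0.05. Fold differences on this scale understate those of low genes, and ± after a log2 difference is the standard error. The unblocked fit was the planned main fit, although the study tested in pairs, because the headings carry no labelled pairing. Heading beginnings recur across groups: deviations from group means of libraries with the same beginning correlated at 0.45 to 0.784 over 10269 genes in the Th17 table and 0.662 to 0.769 over 10208 genes in the iTreg table, against -0.59 to 0.434 and -0.576 to 0.248 for different beginnings. The fit with the heading as a block is therefore given as well. Headings do not name the group, which was inferred from their endings. The ending found in both tables was taken as Th0, and an ending found in a single table as that table's polarized group. The experiment number of the labels is not in the headings.

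Total reads are unknown. Steps among low FPKM values gave relative depths of 0.843 to 1.08 and 0.825 to 1.19 of the median library, from few genes. The 4 cultures a group were independent per the study's methods. The 44 members, the 182 further genes, the markers and the motifs were chosen with earlier results of these data known. Values in every library are given for each member called in the unblocked fit and for the members with the highest Th0 means of each role group, and of the further genes the 3 called with the widest difference in each direction are named, except 1 that is not reported here. Overlap with other genes and shared 100-base windows were read from GENCODE vM21, and promoters from RefSeq (GRCm38.p6). Scripts ran in Python 3.11.15 with pandas 2.3.3 and numpy 2.4.6 and were tested on simulated data. Other pseudocounts, filters, scalings and left-out libraries were tried.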

Additional observations from a re-analysis of the deposited data

Results flagged for a closer look

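In groups of 4 libraries, 4 of 132 group and gene combinations held a library that stood apart from the others of its group by Dixon's criterion, which flags about 1 in 20 by chance. In Th0 cells the M29 library was at 18.4 FPKM for Cdc20, with the others at 52.2 to 53.7, and at 11.3 for Kif23, with the others at 21.2 to 22.3. In Th17 cells the M42 library was at 253 FPKM for Cdk4, with the others at 158 to 167. In iTreg cells the M29 library was at 8.12 FPKM for E2f2, with the others at 11.2 to 11.7.

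For 2 CDK inhibitor genes every heading moved one way in Th17 cells and the other way in iTreg cells. Cdkn1a differed from Th0 by -0.85 in Th17 and 0.88 in iTreg cells, and Cdkn2d by 0.78 and -0.50. The 2 comparisons share their Th0 libraries, and the difference between them was not tested.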

How the results depend on the processing

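Pseudocounts of 0.1 and 0.5, no filter, a filter at 5 FPKM, median-of-ratios size factors and limma's trend and robust options gave 3 to 4 members called in Th17 and 12 in iTreg cells. The lower of these Th17 counts lacked Cdk6 (adjusted p = 0.058 and 0.052). At an FDR of 0.01 the counts were 1 member and 6 further genes in Th17, and 2 and 7 in iTreg cells.

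The replicate block on headings gave 36 members and 128 further genes called in Th17, and 38 and 134 in iTreg cells. With the block and a pseudocount of 0.1 these were 33 and 123, and 38 and 126. With size factors they were 36 and 129, and 38 and 134, and at an FDR of 0.01 18 and 72, and 32 and 100. With the block and without both M22 libraries they were 25 and 92, and 34 and 110. Without M29 they were 28 and 108, and 36 and 123, without M42 39 and 129, and 36 and 114, and without M43 27 and 105, and 38 and 118.

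Without the block, leaving out 1 library at a time gave 1 to 17 members and 11 to 89 further genes in Th17, and 4 to 11 and 15 to 44 in iTreg cells. The largest Th17 counts came without the M42 Th17 library. Without both M29 libraries the counts were 1 and 15 in Th17 cells, and 69 further genes in iTreg cells, where the count of members is not given here. The median difference over members ranged from -1.08 to -0.46 in Th17 and from -0.75 to -0.39 in iTreg cells with 1 library left out. Reversed signs were all near 0 and not called. Mcm6 was 0.03 in Th17 without both M29 libraries, with and without the block. In iTreg cells with 1 library left out Cdk4 ranged from -0.17 to 0.07, Ccnd3 from -0.07 to 0.22, Cdkn1b from -0.29 to 0.07, Ccnb1 from -0.88 to 0.02 and Cdc20 from -0.56 to 0.13. With the block Ccnd3 was -0.04 without M42 and -0.02 without M43. The causes were not tested. FPKM without counts gives no per-gene counting error.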
